A study of Mus musculus with 26 samples.

Results

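Sites of the cohesin subunit SMC3 were compared between C2C12 myotubes and myotubes in which the DRR enhancer RNA had been knocked down. C2C12 is a mouse line of muscle precursors (myoblasts) whose cells fuse into multinucleate myotubes in low serum. The comparison used 4 of the 26 samples of the series: 2 ChIP-seq libraries from myotubes and 2 from myotubes transfected with siDRR, an siRNA against the DRR RNA. All 4 came from the same line, were grown in 20% FBS and differentiated in 2% horse serum with insulin, transferrin and selenium, and were precipitated with 1 lot of SMC3 antibody, per the labels. The labels give a transfection for the siDRR libraries alone, so transfection and loss of the RNA cannot be told apart in this comparison. They name no separate cultures, so the spread between replicates may be technical. The level of the DRR RNA after knockdown was not analysed here.

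Each library was represented by its own list of called peaks in coordinates of mouse build mm9. The peaks of the 4 lists on chromosomes 1 to 19 and X were joined wherever they shared at least 1 bp, which gave 30797 regions. A region was counted for a library when at least 1 peak of that library touched it. All regions of this kind were members of the comparison. A region called in both myotube libraries and in neither siDRR library is termed lost below, and the opposite case gained. These words describe peak calls and are no test of occupancy. Because the lists differ in length, strength is given as a rank percentile, the place of a peak by its deposited score within its own list, with 100 the best. Regions are named by position, since no gene annotation of this build was used here.

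Cohesin is a ring-shaped complex that holds sister chromatids together and, in interphase, extrudes and anchors chromatin loops. SMC3 and SMC1A form the long arms of the ring and RAD21 closes it. Many cohesin sites are occupied by CTCF and shared among cell types, while others lie at active enhancers and promoters and differ between tissues. The DRR, the distal regulatory region of Myod1, is a muscle enhancer that is itself transcribed. The comparison addressed whether its RNA is needed for cohesin to sit at its sites in myotubes.

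The siDRR libraries called fewer SMC3 peaks than the myotube library of the same number, but the library with the shortest list set much of the comparison. Myotube replicates 1 and 2 had 15056 and 26765 peaks, and siDRR replicates 1 and 2 had 8384 and 23196. The lists of the groups overlapped in length: siDRR replicate 2 had more peaks than myotube replicate 1. The mean was 20910.5 ± 8280 in myotubes and 15790 ± 10474 under siDRR (SD, n = 2 each), and the two-sided exact permutation test over the 4 libraries gave p = 0.667. With 2 libraries against 2 that test cannot give less than 0.333. The difference of -5120.5 peaks, siDRR minus myotube, became 2285.5 without siDRR replicate 1 and 734 without myotube replicate 2, in both cases the opposite direction.

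siDRR replicate 1 stood apart in more than its length. Its peaks covered 9.21 Mb, against 19.9 and 35.5 Mb in myotube replicates 1 and 2 and 29.3 Mb in siDRR replicate 2. Their median width was 1048 bp, against 1171, 1126 and 1132 bp in the same order. The deposited scores have an unstated scale, so scores printed below describe a peak in its own list and are not compared between lists. The lists give no read counts, so the depth behind each is unknown, and its part in these differences was not tested. Almost all of what siDRR replicate 1 did call was found elsewhere: 97.4% of its 8339 regions were also called in myotube replicate 2 and 95.6% in siDRR replicate 2.

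The libraries numbered 2 resembled each other more than either resembled its group mate. In siDRR replicate 2, 86.3% of the called regions were shared with myotube replicate 2, which is 74.4% of the latter's regions. Only 34.8% of the regions of siDRR replicate 2 were found in siDRR replicate 1. Over the 7142 regions called in all 4 libraries, the rank order of the scores had a Spearman's rho of 0.810 between the libraries numbered 2. It was 0.577 between the myotube libraries and 0.483 between the siDRR libraries. These correlations run across regions that share the same libraries and are a description only. No list repeated another, since at most 1 interval recurred exactly between any of them. The counts of lost and gained regions, the widths and the shares of regions missed are therefore also given without siDRR replicate 1.

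Most myotube SMC3 sites were called again under siDRR in at least 1 library. Of the 13876 regions that both myotube libraries called, both siDRR libraries called 7142 (51.5%). Another 5746 (41.4%) were called in siDRR replicate 2 alone, and 93 (0.670%) in siDRR replicate 1 alone. The remaining 895 were lost, which is 6.45% of the regions of both myotube libraries and 2.91% of all 30797 regions. Gained regions numbered 40, or 0.13% of all regions, and regions called in all 4 libraries made up 23.2% of them.

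**Figure D1:**
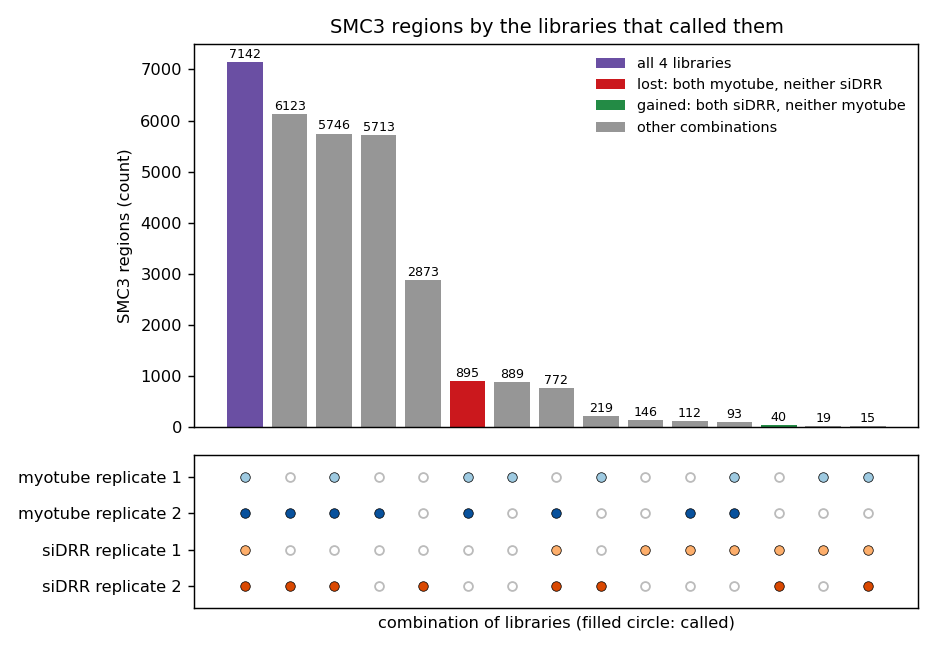
SMC3 regions by the exact combination of libraries that called them. Bars give the number of regions, and filled circles beneath mark the libraries that called them. The 7142 regions of all 4 libraries form the highest bar, and combinations that lack siDRR replicate 1 make up the next 4.

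The plot of call combinations shows where the lost regions stand among the rest. After the regions of all 4 libraries, the most frequent combination was replicate 2 of both groups, with 6123 regions. Myotube replicate 2 alone had 5713 and siDRR replicate 2 alone 2873. The 895 lost regions were about as many as the 889 called in myotube replicate 1 alone. The 40 gained regions were fewer than the 112 called in myotube replicate 2 and siDRR replicate 1, a pair that share neither group nor number.

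The balance of lost and gained counts turned without siDRR replicate 1, under rules that were then uneven. Of the regions that were either lost or gained, 95.7% were lost with all 4 libraries. Without siDRR replicate 1, 988 regions were called in both myotube libraries and not in siDRR replicate 2. In siDRR replicate 2 and in neither myotube library 2914 were called, so that 25.3% of the pair were lost. Lost then asked for 2 calls and 1 absence, and gained for 1 call and 2 absences. The 2 counts are thus not like for like, nor are those without any other single library. Without siDRR replicate 2, 6648 were lost and 186 gained. Without myotube replicate 1 the counts were 6652 and 56, and without myotube replicate 2 they were 1789 and 816. Between the libraries numbered 2 alone, 6813 regions were called in myotube replicate 2 only and 3147 in siDRR replicate 2 only. Between those numbered 1 the figures were 7749 and 1070. In these 2 comparisons the rules were even, and myotube-only regions were the more numerous, as were the myotube peaks.

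Lost sites were weak sites. In myotube replicate 1 their median rank percentile was 22.9, with a middle range of 10.5 to 37.5. In myotube replicate 2 the median was 26.1. The regions of all 4 libraries had medians of 69.8 and 83.5 in the same lists. On the deposited score, which starts at 50 in these lists, 753 of the 895 lost regions (84.1%) were under 100 in myotube replicate 1 and 573 (64.0%) in myotube replicate 2. Only 27 of the 895 lay in the better 50% of both myotube lists, where 6946 of the 13876 regions of both libraries lay. The 40 gained regions were weak as well, with median percentiles of 19.5 in siDRR replicate 1 and 18.5 in siDRR replicate 2.

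Loss ran steeply with rank. The regions of both myotube libraries were put into 10 equal groups by their mean percentile in those lists. In the weakest group 503 regions (36.2%) were lost, in the next 200 (14.4%), and in the one after that 92 (6.63%). The 2 strongest groups lost none. siDRR replicate 2 called 61.2% of the weakest group and 100% of the strongest. siDRR replicate 1 called 11.0% of the weakest, 46.6% of the fifth group and 93.8% of the strongest.

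**Figure D2:**
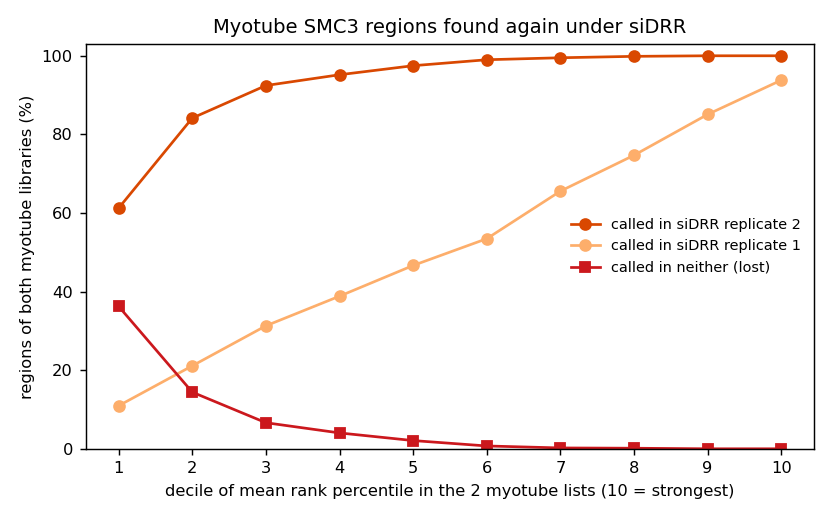
Share of the 13876 regions of both myotube libraries that each siDRR library called, and share called in neither, by 10 groups of mean rank percentile in the myotube lists (10 = strongest). siDRR replicate 2 exceeds 90% from the third group on, siDRR replicate 1 climbs to 93.8% only in the last, and the lost share drops from 36.2% to 0%.

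Regions were also missed between replicates of a group. Of the 15018 regions of myotube replicate 1, 1142 were not called in myotube replicate 2. Of the 19783 regions found by both libraries numbered 2, myotube replicate 1 called 65.1% and siDRR replicate 1 called 40.0%. Of the 7269 regions found by both libraries numbered 1, myotube replicate 2 called 99.5% and siDRR replicate 2 called 98.5%. The libraries numbered 2 thus missed few of the regions that both libraries numbered 1 called, a set limited to what the shortest list held. Of all 15018 regions of myotube replicate 1, siDRR replicate 2 did not call 1896.

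The 10 lost regions named here are those with the highest value of the lower of their 2 myotube percentiles. That value ran from 55.6 to 67.9, and the regions were 992 to 5774 bp wide. The first lay at chr4:63140648-63141963 (1316 bp), at percentiles of 82.8 and 67.9 in myotube replicates 1 and 2 and with scores of 197.70 and 260.62. Both myoblast SMC3 lists also held a peak there, as did all 4 ATAC lists of control and siDRR myotubes. ATAC-seq marks open chromatin by insertion of a transposase. The nearest SMC3 peak was 61.5 kb away in siDRR replicate 1 and 13.8 kb away in siDRR replicate 2.

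The second, at chr1:136185772-136191545, was the widest of the 10, and the nearest myoblast peaks were 36.7 and 36.5 kb away. A single peak of 5774 bp covered it in myotube replicate 1, at percentile 94.5. In myotube replicate 2 a pair of peaks covered 4236 bp of it, the better at 64.9. The nearest peak of siDRR replicate 2 was 27.6 kb away. The third was on the X chromosome at chrX:7353480-7354471, at percentiles of 67.1 and 64.1. It held peaks in both myoblast lists, at 78.2 and 75.0, and no ATAC peak in any of the 4 lists.

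Others of the 10 differed in what else was called there. The region at chr1:158932591-158935654 (69.4 and 63.8) had no myoblast SMC3 peak, but its ATAC peaks ranked at 92.4 and 90.9 in control and at 79.9 and 78.2 under siDRR. The region at chr9:53676757-53677991 reached 95.9 in myotube replicate 1 but 63.8 in myotube replicate 2, with both myoblast peaks and no ATAC peak. At chr9:51085017-51087910 (71.9 and 62.0), 1 myoblast list had a peak and all 4 ATAC lists did. At chr1:187577900-187579235 (78.5 and 60.9), no myoblast peak was called, and the nearest peak of any siDRR SMC3 list was 71.3 kb away. For chr14:35386951-35388152 (60.1 and 57.5) siDRR peaks of both libraries lay 2.7 kb away. The regions at chr11:84731663-84732674 (59.0 and 63.1) and chr5:64550532-64552636 (55.6 and 72.0) had both myoblast peaks. In all, 6 of the 10 were called in both myoblast lists and 7 in both control ATAC lists. These 10 were picked by rank. Of all 895 lost regions, 63.4% were in both myoblast lists, and the control ATAC lists singly touched 25.5% and 37.0%. Over all 30797 regions those shares were 67.9%, 44.5% and 63.8%.

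The 10 gained regions named here were chosen by the same rule from only 40, so their ranks are not set against those of the lost. The first, at chr8:88049160-88051639 (2480 bp), had percentiles of 61.0 and 68.6 in siDRR replicates 1 and 2, with scores of 93.21 and 234.16. Both myoblast lists held a peak there, at 86.9 and 63.6, and the nearest myotube peaks were 67.6 and 62.1 kb away. The second, at chr13:33653099-33654063 (52.3 and 45.5), was likewise in both myoblast lists, and its nearest myotube peaks were 331.8 and 200.1 kb away. The fourth, at chr12:76769707-76771686 (28.8 and 41.5), had ATAC peaks at percentiles of 99.4 to 99.8 in the 4 lists. It was also a site of DRR ChIRP, in which probes pull the RNA down with its chromatin, at 99.2 and 94.8 in both libraries of the second probe pool and in neither of the first. A ChIRP site of at least 1 library touched 2 of these 10 gained regions and 3 of the 10 lost ones, the chromosome 1 region at 136185772 in both pools among them. Taken singly, the ChIRP lists touched 0% to 5% of all 40 gained regions and 0.335% to 3.24% of all 895 lost ones. Over all 30797 regions they touched 0.295% to 4.10%. The named regions were picked by rank, so their counts are a description. The tenth, at chr14:121378556-121379513, stood at 22.0 and 22.9. Of the 10 gained regions, 3 were called in both myoblast lists and 5 in both control ATAC lists. Of all 40 gained regions, 45% were in both myoblast lists, and the control ATAC lists singly touched 55% and 57.5%. Over all 30797 regions those shares were 67.9%, 44.5% and 63.8%.

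**Figure D3:**
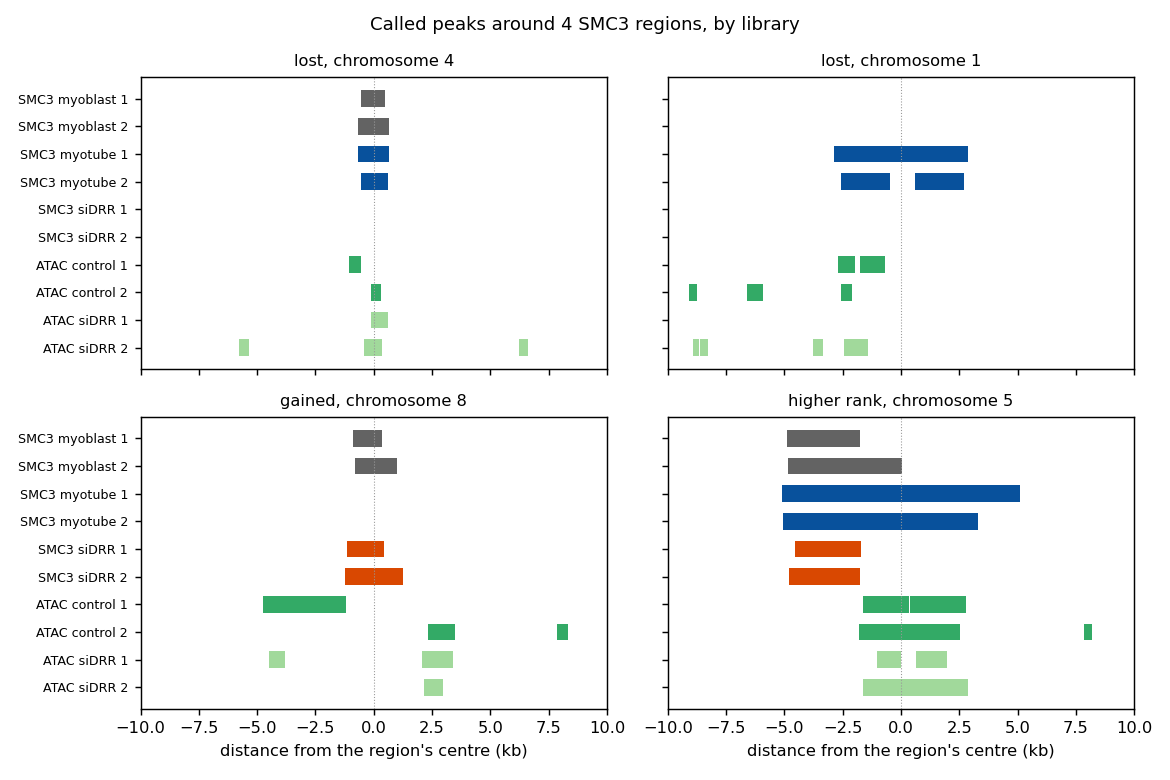
Called peaks by library around 4 SMC3 regions, in kb from the centre of each region; each bar spans 1 peak. The lost regions on chromosomes 4 and 1 have SMC3 peaks in myotubes and none under siDRR, the gained region on chromosome 8 has the reverse, and at the chromosome 5 region the siDRR peaks cover only the left part of the myotube peaks.

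The maps of called peaks show that a lost region may or may not be a myoblast site. The chromosome 4 and chromosome 8 sites were called in both myoblast lists, and the chromosome 1 site in neither. At the chromosome 1 site siDRR ATAC replicate 2 had a peak, at 65.6, and siDRR ATAC replicate 1 had none. Both control ATAC lists had peaks there, at 49.4 and 25.2.

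Which regions counted as lost depended on how many peaks of each list were used. When every list was reduced to its 8384 best peaks, the length of the shortest, 346 regions were lost and 289 gained. Of those 346, only 2 touched any of the 895 lost with full lists, and 344 (99.4%) were called in the full list of siDRR replicate 2. Of the 895, 741 (82.8%) were then called in neither myotube list and 152 (17.0%) in 1 of them. With equal lengths the myotube lists ended at scores of 97.04 in replicate 1 and 266.72 in replicate 2. The siDRR lists ended at 50 in replicate 1 and 205.57 in replicate 2. The sets of lost regions at full and at equal length were thus almost separate.

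The 2 regions lost under both treatments of the lists were both wider than the median lost region of 1058 bp. One was chr5:64550532-64552636 (2105 bp), the tenth of those above, with scores of 117.10 and 295.86 in myotube replicates 1 and 2. Peaks of both myoblast lists and of all 4 ATAC lists lay in it, the ATAC peaks at percentiles of 84.5 to 89.0. The other was chr1:94757117-94761470 (4354 bp), at percentiles of 46.2 and 73.3 and scores of 100.24 and 309.60. No myoblast SMC3 peak was called in it, and the nearest siDRR peaks were 25.7 and 19.6 kb away. Its ATAC peaks were weak, at 26.9 in control replicate 2 and at 26.9 and 8.6 under siDRR.

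Within the regions of all 4 libraries, siDRR ranks lay above the myotube ranks about as often as under them. Each library ranked the same 7142 regions by score, and regions were counted in which both siDRR ranks lay under, or both over, both myotube ranks. Both were under in 1084 regions (15.2%) and over in 1113 (15.6%). A gap of at least 10 percentile points separated the groups downward in 388 regions (5.43%) and upward in 407 (5.7%). In the other 4945 regions (69.2%) the groups overlapped. The counts in the 2 directions were thus close to equal, which ranks within fixed sets favour by construction. With 2 libraries against 2, interchangeable rankings would leave the groups apart, in either direction, in a share of 0.333 of regions. The groups were apart in no larger a share here, so the counts are no measure of a shift under siDRR.

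The widest drop was at chr15:6187424-6189087. Among the 7142 regions it ranked at 77.4 and 78.9 in the myotube libraries and at 4.4 and 19.6 in siDRR replicates 1 and 2. Its scores were 224.64 and 697.43 in myotubes and 52.47 and 183.97 under siDRR. Next was chr5:113649219-113651040, at 82.1 and 77.9 in myotubes and 22.7 and 10.7 under siDRR. The regions at chr13:102463481-102466983 and chr11:99324049-99325293 followed, with gaps of 54.0 and 53.6 points between the nearest libraries of the groups. The fifth, chr6:97366412-97367733, went from 75.7 and 71.4 to 21.6 and 20.7. All 5 were called in both myoblast lists, as were 99.1% of the 7142.

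The widest rise was at chr5:123581848-123592057, a region of 10210 bp. It ranked at 34.9 and 37.6 in the myotube libraries and at 97.0 and 92.2 under siDRR, with scores of 120.69 and 359.34 in the former and 221.08 and 768.99 in the latter. The myotube peaks covered 10210 and 8376 bp of it, and the siDRR peaks only 2849 and 3059 bp at its left end. The first myoblast library also had its peak at that end. The control ATAC peaks lay mainly in the part that the siDRR SMC3 peaks left out. Thus the siDRR peaks were narrower here and ranked higher within their lists.

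The other regions of widest rise were of ordinary width. At chr9:44462796-44464459 the ranks were 8.2 and 14.9 in myotubes and 65.5 and 66.8 under siDRR. At chr6:36853151-36854583 they were 16.4 and 15.9 against 67.0 and 78.7. At chr1:191451904-191453057 they were 5.1 and 18.7 against 61.9 and 65.3. The fifth, chr14:79523879-79525260, had 15.5 and 23.0 in myotubes and 88.3 and 62.5 under siDRR. In each of these 10 regions the gap between the groups was larger than the difference between the 2 libraries of either group. They were chosen for that separation, so it supports nothing further.

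**Figure D4:**
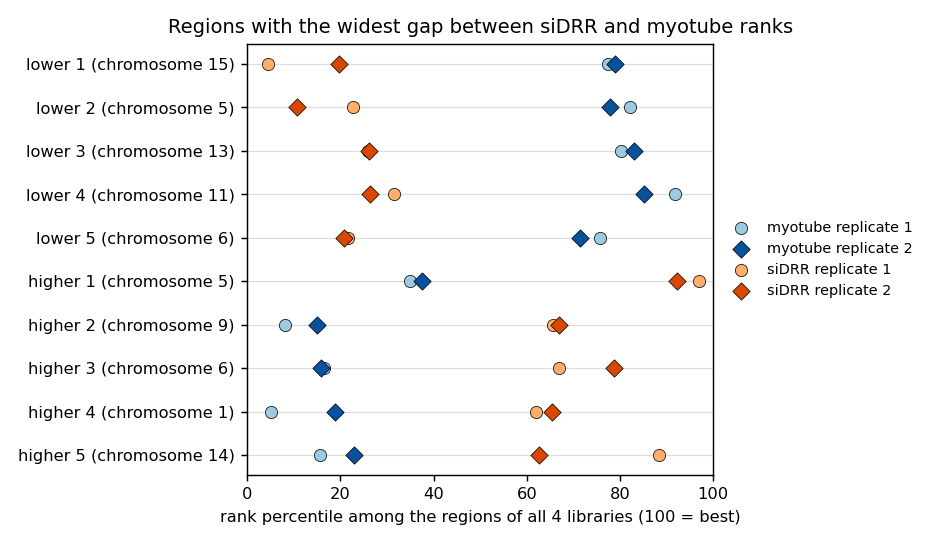
Rank percentile of 10 SMC3 regions in each library, among the 7142 regions called in all 4 (100 = best). The upper 5 have the widest gap with both siDRR libraries lower and the lower 5 the widest gap with both higher, as at chromosome 15, where myotube ranks of 77.4 and 78.9 stand against 4.4 and 19.6.

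The plot of rank gaps shows the size of these shifts beside the spread within each group. Regions with lower and higher ranks were alike in width and in the other marks. Their median widths were 1291.5 and 1284 bp, and 99.9% and 99.8% of them touched a myoblast SMC3 peak. A control ATAC peak touched 57.1% of those with lower and 59.7% of those with higher ranks, against 60.8% of the regions in which the groups overlapped. None of these differences was tested.

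Broad SMC3 peaks, of at least 3000 bp, were a smaller part of the siDRR lists. They numbered 444 of the peaks in myotube replicate 1 (2.95%) and 822 in myotube replicate 2 (3.07%). Under siDRR they numbered 25 in replicate 1 (0.298%) and 372 in replicate 2 (1.60%). The mean share was 3.01% ± 0.0864 in myotubes and 0.951% ± 0.923 under siDRR (SD, n = 2 each). The groups did not overlap, and the two-sided exact permutation p was 0.333, the smallest that 2 libraries against 2 allow. The direction was the same without each library in turn and with the better-scoring 50% of each list. With lists of equal length the shares were 2.93% and 4.91% in myotubes and 0.298% and 2.97% under siDRR, so siDRR replicate 2 then stood just over myotube replicate 1, and the exact permutation p was 0.667.

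Broad sites of myotubes were mostly still called under siDRR, often as narrower peaks. In 269 regions both myotube libraries had a broad peak, with median widths of 3910 and 3884 bp for the widest. Of these, siDRR replicate 2 called 260 (96.7%) and had a broad peak in 143 (53.2%), at a median width of 3085 bp. siDRR replicate 1 called 113 (42.0%) and had a broad peak in 18 (6.69%), at a median of 1883 bp. Of the 269, 9 were lost. Over all 13876 regions of both myotube libraries siDRR replicate 2 called 92.9%, siDRR replicate 1 called 52.1% and 6.45% were lost. A control ATAC peak touched 99.6% of the 269, against 56.5% of those 13876 and 65.8% of all regions. Because these regions were picked for broad peaks in myotubes, the narrower siDRR widths are a description.

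Looked up from 1 library at a time, the shares depended on how many of the regions the other list called. Of the 818 regions with a broad peak in myotube replicate 2, siDRR replicate 2 called 715 (87.4%) and had a broad peak in 295 (36.1%). Myotube replicate 1 called only 351 (42.9%) and had a broad peak in 269 (32.9%). The close shares of broad peaks thus rest on unlike numbers of called regions. Of the 444 in myotube replicate 1, myotube replicate 2 called 426 and had a broad peak in 60.6%. There siDRR replicate 2 called 409 and had one in 34.7%. In the other direction, 80.2% of the 368 regions with a broad peak in siDRR replicate 2 had one in myotube replicate 2.

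Widths also differed in the 7142 regions of all 4 libraries. Both siDRR libraries covered less of a region than both myotube libraries in 2480 of them (34.7%), and more in 273 (3.82%). Within pairs of the same number, the median ratio of covered width was 0.855 between the libraries numbered 1 and 0.993 between those numbered 2. siDRR replicate 1 was the narrower of its pair in 6062 regions (84.9%) and siDRR replicate 2 in 3738 (52.3%). Without siDRR replicate 1, siDRR replicate 2 was narrower than both myotube libraries in 5405 of 12888 regions and wider in 3097. The excess of narrower over wider regions held in direction, and was smaller without that library.

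A few regions narrowed much more than the rest. In 18 of the 7142 regions (0.252%) both siDRR libraries covered under 50% of the narrower myotube width, and in 0 regions was the reverse true. With lists of equal length the counts were 12 and 0, and without siDRR replicate 1 they were 72 and 0. All 18 touched a control ATAC peak and peaks of both myoblast SMC3 lists, and 11 of them were at least 3000 bp wide. Over the 7142 regions 60.1% touched a control ATAC peak, 99.1% touched peaks of both myoblast lists and 3.68% were that wide. Choosing regions by so much narrowing favours wide ones. Of all 1141 regions at least 3000 bp wide, 98.6% touched a control ATAC peak. These were singled out after their values had been seen.

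The first of the 18 by the ratio of widths was chr16:38344543-38348935, where myotube peaks covered 4338 and 3640 bp and siDRR peaks 1265 and 1294 bp. The chromosome 5 region with the widest rise in rank was the second. At chr19:37338384-37341062 the widths were 2679 and 2303 bp in myotubes and 832 and 895 bp under siDRR. At chr1:72900890-72904601 they were 3712 and 3441 bp against 1274 and 1346 bp, and at chr5:31863985-31868779 they were 4795 and 4025 bp against 1440 and 1585 bp. In rank among the 7142 regions the chromosome 16 region stood at 45.8 and 8.0 in myotubes and 60.1 and 24.2 under siDRR, so a narrower peak was not there a lower-ranked one.

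Most lost sites were also cohesin sites of myoblasts. A peak of either myoblast list touched 734 of the 895 lost regions (82.0%), against 97.6% of the 13876 regions of both myotube libraries and 99.7% of those in all 4. Over all 30797 regions the share was 82.6%, close to that of the lost ones, and it was 57.9% for regions of myotube replicate 2 alone. A control ATAC peak of either list touched 354 lost regions (39.6%), against 56.5% and 60.1%. That share moved with 1 library: without myotube replicate 1 the share of lost regions with a control ATAC peak was 70.9%, and with lists of equal length it was 58.4%. The lost regions also ranked lower, and the differences were not tested. The siDRR ATAC lists touched 46.5% of the lost regions and 69.9% of those in all 4. The ATAC lists differ in length, from 58137 to 99547 peaks, so each list is also given singly in the plot.

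**Figure D5:**
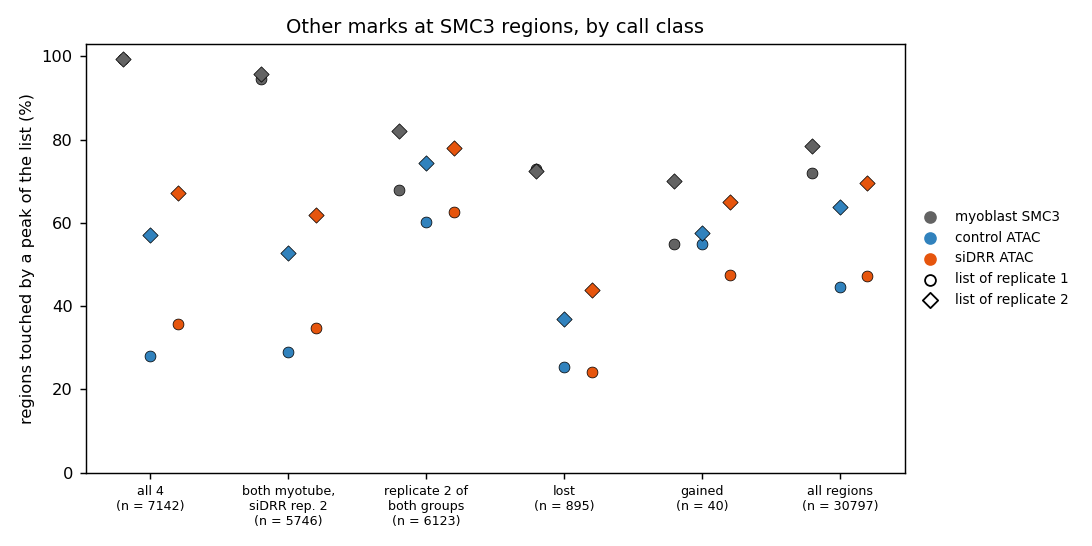
Share of SMC3 regions touched by a peak of each myoblast SMC3, control ATAC and siDRR ATAC list, by the libraries that called the region. Of the classes drawn, lost regions have the lowest ATAC shares, 25.5% and 37.0% in the control lists, and regions of all 4 libraries have myoblast shares of 99.4% and 99.5%.

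The plot of other marks shows that, of the 5 call classes drawn, lost regions had the lowest ATAC shares under siDRR as well. Some of the smaller combinations not drawn were lower: the 93 regions missing only in siDRR replicate 2 had 19.4% and 39.8% in the siDRR lists and 19.4% and 29.0% in the control lists. The siDRR lists touched 24.2% and 43.8% of the lost regions, and the control lists 25.5% and 37.0%. The regions called only by the libraries numbered 2 had control shares of 60.2% and 74.4%, and those called by siDRR replicate 2 alone 64.0% and 79.2%. The 40 gained regions had control shares of 55% and 57.5%.

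Sites without a myoblast peak had higher lost shares, also within groups formed by rank. Of the 336 regions of both myotube libraries without a myoblast peak, 161 (47.9%) were lost, against 734 of 13540 (5.42%) with one. In the weakest of 5 equal groups by mean myotube percentile, 134 of 242 regions without a myoblast peak were lost (55.4%) and 22.5% of those with one. Inside that group the regions without one also ranked lower, at a median of the mean percentile of 23.0 against 28.1. In the second group the shares were 28.6% of 56 and 4.85%, and in the third 34.6% of 26 and 1.09%. The 2 strongest groups held only 12 regions without a myoblast peak. In siDRR replicate 2 alone, 50.9% of the regions without a myoblast peak were missed and 6.03% of those with one. The same regions also dropped out between the myotube libraries. Among the regions of myotube replicate 1, myotube replicate 2 missed 60.2% of the 844 without a myoblast peak and 4.47% of the 14174 with one. siDRR replicate 2 missed 76.5% and 8.82% of them. The difference between these contrasts was not tested.

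Regions with a control ATAC peak had a lower lost share in the weakest rank groups, but not in the third. They also ranked higher, at a median of the mean percentile of 65.4 against 56.3 for those without. Over all regions of both myotube libraries, 4.51% of those with a control ATAC peak and 8.97% of those without were lost. In the weakest of the 5 groups the shares were 21.3% and 28.7%, and in the second 3.98% and 6.82%. In the third they were 1.51% and 1.27%, and the order was reversed. In siDRR replicate 2 alone, the shares missed in these 3 groups were 22.8% and 31.1%, 4.53% and 8.04%, and 1.63% and 1.95%.

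Sites of the DRR RNA found by both probe pools were rare among SMC3 regions of every kind, lost ones included. Regions touched by a ChIRP site of at least 1 library of each probe pool made up 4 of the 895 lost regions (0.447%) and 28 of the 13876 regions of both myotube libraries (0.202%). The share was 0.188% over all 30797 regions. ChIRP sites were taken as the deposited summit with 250 bp on each side. The counts are too small for more than this description.

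Lost regions were spread over all chromosomes. The share of the regions of both myotube libraries that was lost ran from 4.73% on chromosome 3 (35 of 740) to 8.57% on chromosome 4 (75 of 875). The X chromosome had 8.24% (23 of 279). On that chromosome 36.2% of the regions were called in all 4 libraries, against 48.0% to 56.8% on the autosomes. siDRR replicate 1 missed 63.1% of its regions, against 42.9% to 51.0% on the autosomes. siDRR replicate 2 missed 8.96% of them, inside the autosomal range of 5.27% to 9.37%, so the X chromosome stood apart in siDRR replicate 1 only. X regions were also weaker in myotubes, at a median of the mean percentile of 46.9 against 58.1 to 66.7. Of the peaks of each list, 2.03% and 2.07% lay on the X chromosome in myotubes and 1.53% and 1.97% under siDRR.

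Few lost sites had an siDRR peak close by. The nearest SMC3 peak lay within 1000 bp of a lost region in 20 cases in siDRR replicate 1 and in 39 in siDRR replicate 2. The median distance was 58.2 kb in replicate 1 and 21.7 kb in replicate 2, the longer list having the closer peaks. A neighbouring region of both myotube libraries was itself lost for 149 of the 895 (16.6%), against 12.4% of all 13876.

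Some sites stood near the top of all 4 lists; the 5 named here were picked for the highest value of their lowest percentile, so their agreement is a description. The region at chr8:95341586-95343141 (1556 bp) stood at a percentile of at least 99.97 in every list, with scores of 706.67 and 2050.09 in myotubes and 503.85 and 2382.59 under siDRR. The regions at chr13:98706729-98710201, chr1:182198244-182199850, chr2:14216356-14217587 and chr2:77179387-77180884 followed, and none of the 5 was under 99.57 in any list. In both myoblast lists these 5 were called as well, at percentiles of 98.6 to 100. Their ATAC peaks ranked lower: the chromosome 13 region had none in either control list, and the chromosome 8 region had 77.2 and 82.3.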

How the data were processed

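Peak lists of 4 SMC3 ChIP-seq libraries were compared, 2 of myotubes and 2 of siDRR myotubes. The lists of 2 myoblast SMC3, 4 ATAC and 4 ChIRP libraries were read beside them. Chromatin was sheared to 250 bp, per the labels' protocols. The submitters' processing notes name build mm9, the base-call converters CASAVA 1.8.2 and bcl2fastq 2.17.1, the trimmer cutadapt 1.12, the aligners Bowtie 1.1.1 and Bowtie2 2.2.4, and the peak callers MACS 1.4.2 and MACS2, with no assay for any of them. The control, threshold and read filters of peak calling are not given in these sources. The peak score in the last of 5 columns was deposited by the authors, its scale is not stated, and it was used to rank peaks within a list. Each library had its own list, so replicates were not pooled for peak calling. The 10 other samples, inputs among them, were not analysed here.

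From these lists, starts were made 1-based, peaks were merged at 1 bp of overlap, and tied scores shared their mean percentile (Python 3.11.15, pandas 2.3.3, numpy 2.4.6). The tests are the exact permutation test of list length and of the share of broad peaks over the 4 libraries and an exact sign-flip test of list length within replicate numbers; other values are counts without a test. Named regions were the 10 lost and 10 gained with the highest lower percentile, the 5 of all 4 libraries with the highest lowest percentile, the 5 with the widest rank gap each way, and those lost also at equal length. The alternatives were equal list lengths, the better-scoring 50% of each list, peaks covering at least 50% of a region, gaps of up to 1000 bp merged, 250 bp on each side of a peak's midpoint, and each library left out. The widths of broad peaks and the counts of narrowed regions were added after the data had been seen. Members and lists were chosen with earlier results of these data known. The procedures were checked on simulated lists of nearly equal length with planted lost, gained and lower-ranked sites. That check covers the counting and not the unequal list lengths found here.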

Additional observations from a re-analysis of the deposited data

How the results depend on the processing

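Without 1 library at a time, the difference in list length, siDRR minus myotube, ran from -12526.5 to 2285.5 peaks and was reversed without myotube replicate 2 (734) and without siDRR replicate 1 (2285.5). With the replicate number as a block it was -5120.5, with p = 0.5 in an exact sign-flip test, the smallest that 2 pairs allow. The labels do not say that a number marks a shared culture; deviations from the group means correlated at 0.187 over 7142 regions. The same block gave 25.0% of shared regions lower and 26.8% higher in rank. With lists of equal length 346 regions were lost (98.3% with a myoblast and 58.4% with a control ATAC peak), 289 gained and 4329 in all 4. With the better-scoring 50% of each list 551 were lost (97.1% and 49.0%) and 3112 in all 4. Peaks covering at least 50% of a region gave a control ATAC share of 47.3%, and midpoints 109 gained. Leaving out 1 library gave 988 to 6652 lost, 56 to 2914 gained, 7163 to 12888 in all libraries left, 28.7% to 35.0% lower and 30.4% to 36.8% higher in rank, and shares of lost regions of 61.2% to 95.4% with a myoblast and 38.9% to 70.9% with a control ATAC peak. Among regions shared by the libraries left, 3639 to 5405 were narrower and 580 to 3097 wider under siDRR, and 37 to 166 had siDRR peaks under 50% of the myotube width, with 0 in the reverse in each case. Without both libraries numbered 1, added after the data had been seen, 6864 were lost (62.0% and 70.2%), 3159 gained, 19819 shared, 49.7% lower and 50.2% higher in rank. Without those numbered 2, 7777 were lost (89.6% and 51.8%), 1076 gained, 48.9% lower and 51.1% higher. When libraries are left out fewer must agree, which by itself raises the counts of lost, gained and shared regions and the rank shares. The block likewise asks less of the ranks than groups that do not overlap. Those rises are therefore no measure of an effect of siDRR. The cause of the other changes was not tested beyond list length. Without read counts, a site missing from a list cannot be told apart from one under the calling threshold.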
